A study of Mus musculus with 16 samples.

Results

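Polycomb repressive complex 2 (PRC2) was examined through the genes that encode it, the core subunits Ezh1, Ezh2, Eed, Suz12, Rbbp4 and Rbbp7 and the cofactors Jarid2, Aebp2, Mtf2 and Phf19. The genes were chosen by name, 10 of 21887 protein-coding genes, and all 10 were found in the gene table. Every called peak that touched a gene span or the 5 kb on either side of it was taken, which gave 155 of the 117176 peaks in 12 lists. Of these 155 peaks, 33 were H3K4me3, 111 were H3K27ac and 11 were H3K27me3.

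The cells were mouse embryonic stem cells (mESCs) of C57BL/6 background, grown in serum with LIF, the GSK3 inhibitor CHIR99021 and the MEK inhibitor PD0325901. ChIP-seq lists of H3K4me3, H3K27ac and H3K27me3 came from Mettl14 knockout cells, which the labels call CKO, and from Mettl14 control cells, with 2 lists per condition and mark. METTL14 pairs with METTL3 to form the RNA methyltransferase that makes N6-methyladenosine, and the series asked how histone marks differ without it. The labels do not say how the knockout was induced, whether a line was 1 clone or whether replicates were separate cultures, so a p-value covers only the spread between these lists.

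PRC2 is the enzyme that methylates H3K27, and trimethylated H3K27 lies over silent developmental genes in mESCs. The catalytic subunit Ezh2 or Ezh1 works only when held by Eed and the scaffold Suz12, together with a histone-binding protein, Rbbp4 or Rbbp7. The cofactors bring the core to chromatin in alternative assemblies, one with Jarid2 and Aebp2 and another with a Polycomb-like protein such as Mtf2 or Phf19. H3K4me3 lies at active and poised promoters, and H3K27ac at active promoters and enhancers.

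The lists hold peak positions and widths, with no heights or read counts, so a change could be seen only as a peak that was called or not called, or as a wider or narrower peak. The measure used for each gene is called bases, the bases of its window that lie inside peaks, given in kb for single genes. The narrowest peak of any list is 0.50 kb wide, a minimum shared by all 12 lists. Lists differed in length: the knockout and control lists held 8055 to 8131 and 2431 to 2859 H3K4me3 peaks, 15058 to 15271 and 13520 to 15541 H3K27ac peaks, and 11349 to 11446 and 6312 to 7203 H3K27me3 peaks. Read depth is unknown, so longer H3K4me3 and H3K27me3 knockout lists cannot be told apart from deeper or better precipitated libraries. With 2 lists against 2, the two-sided exact permutation test over 6 assignments cannot go below p = 0.333. Of 8 stem cell markers (Pou5f1, Sox2 and Nanog among them), H3K27ac was called at 8 and 8 in the knockout lists, against 8 and 7 in the control lists. H3K4me3 was called at 8 and 8 of these markers in the knockout lists, against 7 and 3 in the control lists, with 18222 and 20836 bases against 5821 and 1766. It was called at 0 of 7 fibroblast markers in each of the 4 lists. The Mettl14 window itself held 1074 and 1295 called H3K4me3 bases in the knockout lists, against 0 in each control list, and peaks of histone marks do not check the knockout.

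The promoters of these genes are shown for the starts on which the results turn: Jarid2 had the widest H3K4me3 peaks, Mtf2 and Aebp2 had marks at some of their annotated starts and not at others, Phf19 was the only gene with H3K27me3 and Ezh1 had the narrowest H3K4me3 start peaks of the core genes in the knockout lists. Each line holds the 250 bases just before an annotated start, read 5′ to 3′ on the gene's strand, from RefSeq with build GRCm38.p6, the assembly of mm10. Capitals mark CG pairs, the dinucleotide in which CpG island promoters are rich.
Jarid2 start 1, chr13:44730524-44730773, plus strand: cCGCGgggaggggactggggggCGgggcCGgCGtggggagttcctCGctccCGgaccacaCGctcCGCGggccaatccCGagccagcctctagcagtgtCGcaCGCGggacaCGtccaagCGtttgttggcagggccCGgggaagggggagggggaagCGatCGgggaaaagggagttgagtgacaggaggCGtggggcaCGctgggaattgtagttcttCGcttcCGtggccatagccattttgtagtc
Mtf2 start 1, chr5:108065424-108065673, plus strand: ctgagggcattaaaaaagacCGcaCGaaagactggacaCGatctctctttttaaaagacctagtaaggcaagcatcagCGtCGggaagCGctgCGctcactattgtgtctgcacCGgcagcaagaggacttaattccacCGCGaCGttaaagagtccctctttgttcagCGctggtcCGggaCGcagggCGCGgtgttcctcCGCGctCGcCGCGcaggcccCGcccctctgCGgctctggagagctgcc
Mtf2 start 2, chr5:108077915-108078164, plus strand: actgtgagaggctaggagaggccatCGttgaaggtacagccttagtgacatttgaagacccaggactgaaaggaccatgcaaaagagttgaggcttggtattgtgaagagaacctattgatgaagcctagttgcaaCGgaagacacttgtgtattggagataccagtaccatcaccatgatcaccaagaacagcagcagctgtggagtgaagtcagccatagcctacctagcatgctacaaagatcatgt
Aebp2 start 1, chr6:140622413-140622662, plus strand: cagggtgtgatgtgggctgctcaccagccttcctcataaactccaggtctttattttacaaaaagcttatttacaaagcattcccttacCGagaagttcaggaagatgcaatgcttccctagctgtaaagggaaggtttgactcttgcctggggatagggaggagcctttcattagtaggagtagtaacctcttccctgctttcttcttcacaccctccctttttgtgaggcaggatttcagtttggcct
Aebp2 start 2, chr6:140624659-140624908, plus strand: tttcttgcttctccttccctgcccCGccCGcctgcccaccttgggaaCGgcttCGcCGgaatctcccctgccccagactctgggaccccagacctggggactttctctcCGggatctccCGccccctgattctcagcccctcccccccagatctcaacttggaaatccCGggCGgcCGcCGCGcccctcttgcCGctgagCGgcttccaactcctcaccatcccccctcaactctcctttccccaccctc
Phf19, chr2:34913977-34914226, minus strand: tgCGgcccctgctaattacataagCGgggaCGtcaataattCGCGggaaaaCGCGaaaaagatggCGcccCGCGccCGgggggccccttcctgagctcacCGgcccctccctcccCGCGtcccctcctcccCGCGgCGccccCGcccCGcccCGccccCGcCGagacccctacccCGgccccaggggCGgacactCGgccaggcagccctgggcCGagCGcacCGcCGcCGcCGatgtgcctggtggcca
Ezh1, chr11:101226464-101226713, minus strand: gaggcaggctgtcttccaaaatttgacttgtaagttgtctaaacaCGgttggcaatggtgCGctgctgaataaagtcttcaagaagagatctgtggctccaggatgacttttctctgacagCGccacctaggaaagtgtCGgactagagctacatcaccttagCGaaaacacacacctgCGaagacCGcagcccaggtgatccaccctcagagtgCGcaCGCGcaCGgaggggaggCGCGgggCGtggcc

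CG pairs were dense in most of these promoters. The 14 annotated promoters of the 10 genes held a median of 22.5 CG pairs, against a median of 6 over the 32851 promoters of the table. Suz12 had 37, Rbbp7 34, Phf19 31 and Rbbp4 30, and Ezh2 and the first starts of Jarid2 and Mtf2 had 23 each. Ezh1 had 14 and Eed 12. The exceptions were alternative starts: Aebp2 start 1 had 1 CG pair and its start 3 had 3, against 14 at start 2, and Mtf2 start 2 had 2, against 23 at start 1. Short motifs were searched on both strands. The SP motif CCCCGCCC was in promoters of Suz12, Jarid2, Aebp2, Mtf2 and Phf19 (16.1% of all promoters of the table hold it), the E2F motif GCGGGAA in those of Suz12 and Phf19 (3.82%), the YY1 motif AAGATGGCG in Phf19 (0.606%) and the E-box CACGTG in Rbbp4 (6.02%). The NRF1 motif TGCGCATGC (1.28%) and the ETS motif CCGGAAG (6.91%) were in none of the 14 windows. A match describes these letters only.

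**Figure D1:**
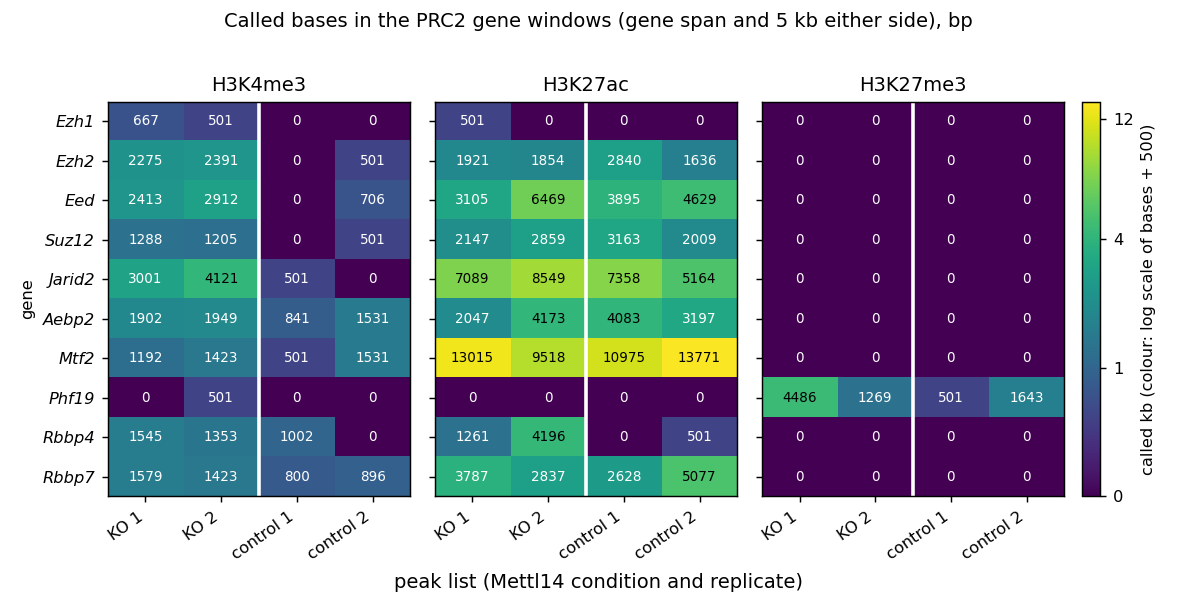
Called bases (bp) of each PRC2 gene (rows) in each of the 12 lists (columns, knockout left of control), per mark; the colour runs on a log scale. H3K4me3 is larger in both knockout columns for 8 genes, H3K27ac has overlapping values for most genes, and H3K27me3 is called at Phf19 alone.

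H3K4me3 was called at nearly all PRC2 genes in knockout cells and at fewer of them, with narrower peaks, in control cells. At least 1 H3K4me3 peak touched 9 and 10 of the 10 gene windows in the knockout lists, against 5 and 6 in the control lists, a difference of 4 genes in the means (two-sided exact permutation p = 0.333). Over all protein-coding genes the shares were 38.5% and 38.9% in knockout lists and 12.8% and 12% in control lists. Both knockout lists called 9 genes, all but Phf19 (background 30.4% of genes), and both control lists called 3, Aebp2, Mtf2 and Rbbp7 (background 4.82%). The windows of these genes were longer than most, with a median of 48183.5 bp against 27169 bp over all genes, which gives a peak more room to fall in them.

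Summed over the 10 windows, H3K4me3 covered 15862 and 17779 bases in the knockout lists, against 3645 and 5666 bases in the control lists. The means were 16820.5 ± 1356 bases in knockout and 4655.5 ± 1429 bases in control (SD, n = 2 each), a log2 ratio of 1.85, and the groups did not overlap (two-sided exact permutation p = 0.333). Over all protein-coding genes the log2 ratio was 2.43, and whether the PRC2 genes differ from that was not tested. Called bases of both knockout lists exceeded both control lists at 8 PRC2 genes, all but Mtf2 and Phf19 (background 28.4%), and 0 had fewer in both knockout lists (background 0.119%). Within 1 kb of the annotated starts they did so at 9 genes, all but Phf19 (background 24.4%).

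**Figure D2:**
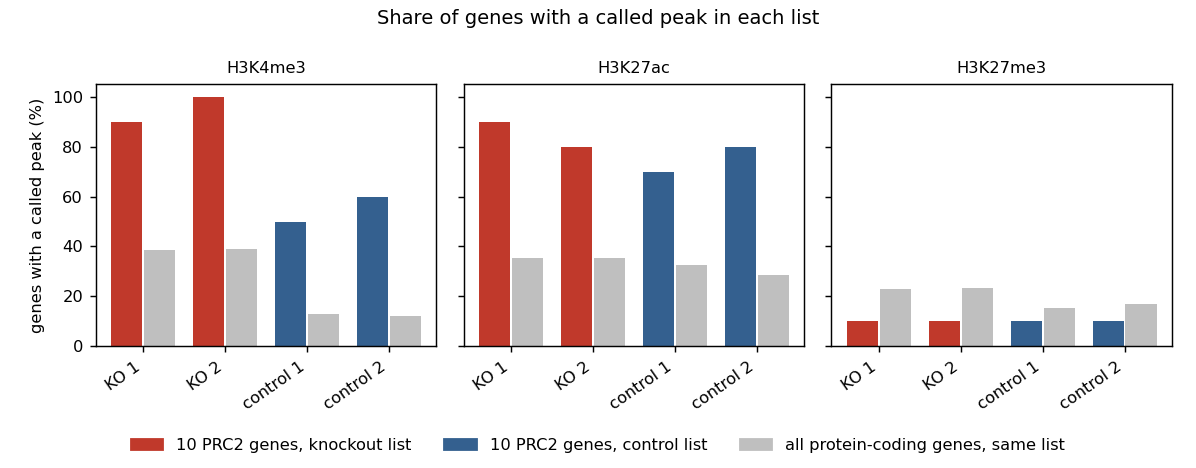
Percent of genes with a called peak in each list, for the 10 PRC2 genes (coloured bars, knockout left of control) and for 21887 protein-coding genes (grey bars). H3K4me3 was called at 9 and 10 PRC2 genes in knockout lists and at 5 and 6 in control lists, H3K27ac at 7 to 9 in every list, and H3K27me3 at 1 in every list.

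The catalytic subunits stood apart from each other. Ezh2, the main H3K27 methyltransferase of dividing cells (chromosome 6, 47530274 to 47595270), had 2.28 and 2.39 kb of called H3K4me3 in the knockout lists, against 0 and 0.50 kb in the control lists. The log2 ratio was 1.92, with 500 bases added to each mean, as in all ratios per gene (two-sided exact permutation p = 0.333). Both knockout peaks lay across the start, from about 1 kb upstream to 1194 and 1249 bp downstream, while the single control peak, at the minimum width of any list (0.50 kb), lay wholly downstream of it. The knockout peaks ranked 276 of 8131 and 179 of 8055 by width. Ezh1, the less active methyltransferase of resting cells (chromosome 11, 101191115 to 101226463), had 0.667 and 0.50 kb in the knockout lists, against 0 in both control lists, and was the only PRC2 gene called in both knockout lists and neither control list over its whole window (background 15.4%). Its peaks began 57 and 51 bp past the start and ranked 5002 of 8131 and 5617 of 8055, among the narrow peaks of their lists. Peaks of equal width share the best rank. The Ezh1 peak of knockout replicate 2 had the minimum width, so no peak of that list was narrower. When the 4 lists were cut to the 2431 widest peaks each, Ezh1 was called in 0 lists. The lncRNA gene F830010H11Rik overlaps the Ezh2 span at its start, so a peak there cannot be assigned to Ezh2 alone.

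Eed and Suz12, which hold the catalytic subunit in its active form, resembled Ezh2. Eed, which binds trimethylated H3K27 and stimulates the enzyme (chromosome 7, 89954654 to 89980976), had 2.41 and 2.91 kb of H3K4me3 in the knockout lists, against 0 and 0.706 kb in the control lists (log2 ratio 1.89, two-sided exact permutation p = 0.333). Its start peaks were 2413 and 2411 bp wide in knockout, against 706 bp in the single control list that called one. Suz12, the scaffold (chromosome 11, 79993106 to 80034123), had 1.29 and 1.21 kb in the knockout lists, against 0 and 0.50 kb in the control lists (log2 ratio 1.22, two-sided exact permutation p = 0.333). At Ezh2, Eed and Suz12 alike, control replicate 1 had no H3K4me3 peak and control replicate 2 had a narrow one.

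The histone-binding subunits are shared with other chromatin complexes. Rbbp7 (chromosome X, 162760372 to 162779090) had 1.58 and 1.42 kb of H3K4me3 in the knockout lists, against 0.800 and 0.896 kb in the control lists (log2 ratio 0.57, two-sided exact permutation p = 0.333). It was called in every list, and all 4 peaks ended between 1058 and 1548 bp past the start. Only the peak of knockout replicate 1 took in the start. The peaks of knockout replicate 2 and control replicates 1 and 2 began 12, 259 and 571 bp past it. Rbbp4 (chromosome 4, 129307100 to 129335370) had 1.55 and 1.35 kb in the knockout lists, against 1.00 and 0 kb in the control lists (log2 ratio 0.96, two-sided exact permutation p = 0.333). The control value came from 2 peaks of minimum width, one on either side of the start. The Rbbp4 start lies 162 bp from the nearest end of Zbtb8os, so a peak there cannot be assigned to Rbbp4 alone.

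Jarid2 had the widest H3K4me3 peaks of the group. Jarid2, a cofactor that binds nucleosomes and recruits PRC2 (chromosome 13, 44730774 to 44921643), had 3.00 and 4.12 kb in the knockout lists, against 0.50 and 0 kb in the control lists (log2 ratio 2.44, two-sided exact permutation p = 0.333). In knockout this was 1 peak per list, which took in both annotated starts, ran to 2913 and 3254 bp past the first and ranked 55 of 8131 and 9 of 8055 by width. The control peak, of minimum width, lay deep in the gene body, ending 150392 bp past the start, and neither control list had a peak within 1 kb of a start. Within 1 kb of the annotated starts, Jarid2 and Ezh1 were thus the 2 genes called in both knockout lists and neither control list (background 14.3% of the 17492 genes with an annotated start).

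Aebp2, Mtf2 and Phf19 are the other cofactors. Aebp2, a zinc finger cofactor that joins the complex with Jarid2 (chromosome 6, 140622454 to 140678472), had 1.90 and 1.95 kb of H3K4me3 in the knockout lists, against 0.841 and 1.53 kb in the control lists (log2 ratio 0.52, two-sided exact permutation p = 0.333). By width the knockout peaks ranked 598 of 8131 and 462 of 8055, and the control peaks 371 of 2859 and 34 of 2431. Start 2, the CG-rich one printed above, was inside the peak in both knockout lists and in 1 control list, and starts 1 and 3 were inside none. Mtf2, a Polycomb-like protein that binds CG-rich DNA (chromosome 5, 108065660 to 108109219), had 1.19 and 1.42 kb in the knockout lists, against 0.50 and 1.53 kb in the control lists, and the groups overlapped (log2 ratio 0.25, two-sided exact permutation p = 1.0). Without control replicate 1 the ratio was -0.17. The higher control value held another peak of 905 bp well upstream, ending at position -3864 relative to the start. Within 1 kb of the starts the Mtf2 values were 1.00 and 1.26 kb in the knockout lists, against 0.50 and 0.626 kb in the control lists, with no overlap (log2 ratio 0.62, two-sided exact permutation p = 0.333). Phf19, another Polycomb-like protein (chromosome 2, 34893752 to 34914353), had 0 and 0.50 kb in the knockout lists, against 0 in both control lists, so 1 minimum-width peak in 1 list was its only H3K4me3.

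**Figure D3:**
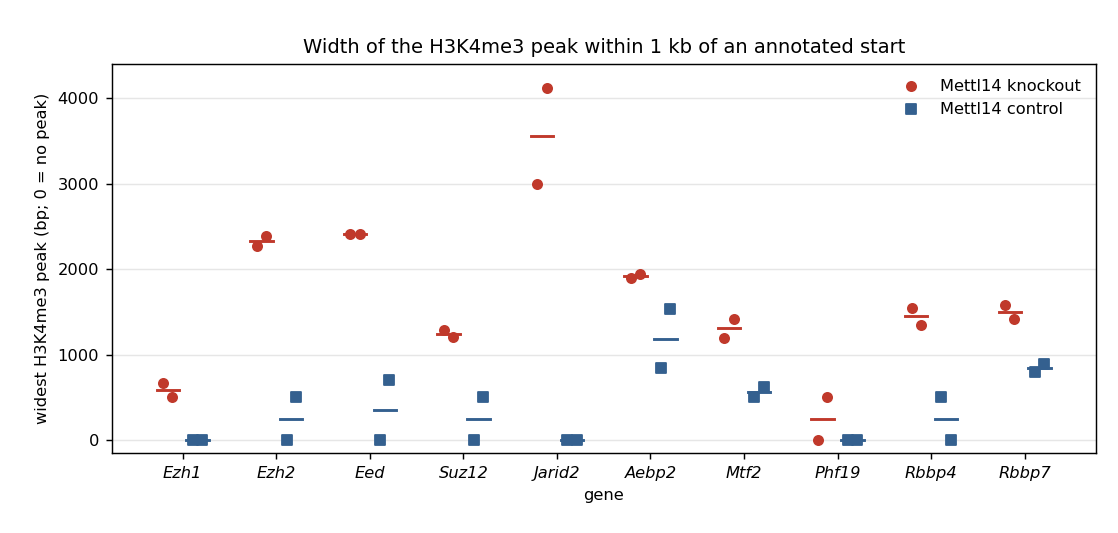
Width in bp of the widest H3K4me3 peak within 1 kb of an annotated start, for each PRC2 gene in the 2 knockout lists (circles, left) and 2 control lists (squares, right), with 0 for no peak and a bar at the mean. Jarid2 reaches 4121 bp in knockout with no control peak, and at 9 genes both knockout values lie above both control values.

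The marked stretches also differed in position. Of the 19 H3K4me3 peaks within 1 kb of a start in the knockout lists, 14 included an annotated start, against 1 of 11 in the control lists, the Aebp2 peak of control replicate 2. Peak centres lay mostly downstream in both, at a median of 551 bp past the nearest start in knockout and 466 bp in control. Median widths were 1545 bp in knockout and 626 bp in control. A wide peak takes in a nearby start more readily than a narrow one, so these counts and the widths are not independent. Control peaks were also narrower over whole H3K4me3 lists, with medians at the minimum width, against 883 and 866 bp in knockout. Peaks of the minimum width made up 31.0% and 30.3% of the knockout lists, against 68.1% and 62.0% of the control lists. Whether peaks at PRC2 starts differ from whole lists in width or position was not tested. Of the 3 PRC2 genes called in all 4 lists (background 4.46%), Aebp2 and Rbbp7 had more H3K4me3 bases in both knockout lists and Mtf2 did not (background 90.5% of the 976 genes called in all 4 lists), and their median log2 ratio was 0.52, against 0.79 over the 976 genes. The same 3 genes had a median of 0.60 within 1 kb of the starts, against 0.61 over the 594 genes called there in all 4 lists.

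At equal list length fewer PRC2 genes separated the conditions, while the summed bases moved little. With the 2431 widest peaks kept per list, 8 and 8 PRC2 genes were called in the knockout lists, the same 8 in each, against 5 and 6 in the control lists, and the summed bases were 15195 and 16276 in knockout, against 3645 and 5666 in control. The narrowest peak kept was 1178 and 1149 bp wide in the knockout lists, against the minimum width of 0.50 kb in both control lists. Ezh1 and Phf19 were the genes lost. Over all protein-coding genes 14.9% and 14.9% were then called in knockout lists, against 11.2% and 12% in control lists.

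Control replicates shared less with each other than knockout replicates did. Of the H3K4me3 peaks at PRC2 genes, 9 of 9 and 9 of 11 in the knockout lists overlapped a peak of the other replicate, against 3 of 6 and 3 of 7 in the control lists. Over whole lists the shares were 62.5% and 63.0% in knockout, against 22.2% and 26.1% in control.

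**Figure D4:**
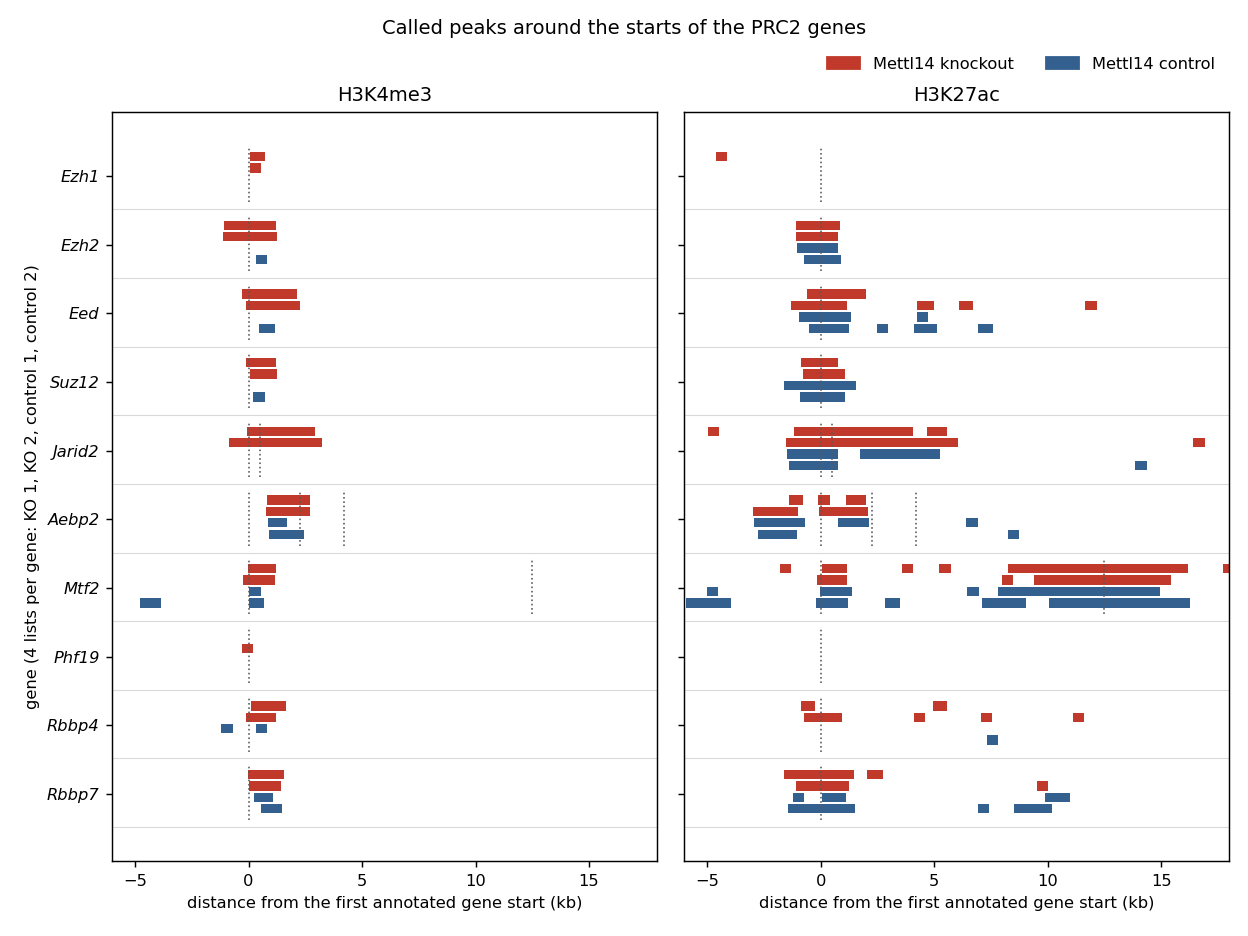
Called H3K4me3 (left) and H3K27ac (right) peaks of each PRC2 gene by distance in kb from its first annotated start, with 4 lines per gene (knockout replicates above control replicates) and annotated starts dotted. H3K4me3 sits near the first or a single start of most genes (start 2 at Aebp2, both starts at Jarid2) and is wider in knockout, while H3K27ac has similar width at most starts and a wide block around the second Mtf2 start.

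H3K27ac was called at most PRC2 genes in both conditions and differed little over the windows with 5 kb flanks. A peak touched 9 and 8 of the 10 windows in the knockout lists, against 7 and 8 in the control lists (difference of the means 1, two-sided exact permutation p = 0.667), with 35.2% and 35.2% of all genes in knockout lists and 32.4% and 28.7% in control lists. The same 7 genes, Ezh2, Eed, Suz12, Jarid2, Aebp2, Mtf2 and Rbbp7, were called in all 4 lists (background 17.1%). Both knockout lists called 8 genes (background 26.3%) and both control lists 7 (background 21.4%). No PRC2 gene had fewer bases in both knockout lists than in both control lists over its whole window (background 3.23%). In total 34873 and 40455 bases were called in the knockout lists, against 34942 and 35984 in the control lists, a log2 ratio of 0.09 where all genes gave 0.28 (two-sided exact permutation p = 1.0). The direction of that ratio rested on knockout replicate 2 and was -0.02 without it. Within 1 kb of annotated starts 14655 and 16867 bases were called in the knockout lists, against 13211 and 12063 in the control lists. These groups did not overlap (log2 ratio 0.32, two-sided exact permutation p = 0.333), and all genes gave 0.65. There 8 and 8 PRC2 genes were called, against 7 and 6 (all genes 21.8% and 22.0%, against 16.8% and 14.0%). With 10 kb flanks the ratio was 0.16 (two-sided exact permutation p = 0.333).

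Of the 6 core genes, Ezh2, Eed, Suz12 and Rbbp7 had H3K27ac within 1 kb of the start in all 4 lists, Rbbp4 in the 2 knockout lists alone and Ezh1 in none. Ezh2 had 1.92 and 1.85 kb of H3K27ac in the knockout lists, against 2.84 and 1.64 kb in the control lists (log2 ratio -0.20). Suz12 had 2.15 and 2.86 kb in knockout, against 3.16 and 2.01 kb in control (log2 ratio -0.04). Rbbp7 had 3.79 and 2.84 kb in knockout, against 2.63 and 5.08 kb in control (log2 ratio -0.19). In all 3 the knockout and control values overlapped (two-sided exact permutation p = 1.0 each). The sign of the H3K27ac ratio at these 3 genes and at Eed, Aebp2 and Mtf2 turned under at least 1 alternative setting, so it gives no direction. Within 1 kb of the start Suz12 had 1.65 and 1.78 kb in the knockout lists, against 2.00 and 1.92 kb in the control lists, and was the only PRC2 gene with fewer bases in both knockout lists there (log2 ratio -0.15, two-sided exact permutation p = 0.333, background 1.17%).

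Eed had an additional H3K27ac region past its end. The gene had 3.11 and 6.47 kb in the knockout lists, against 3.90 and 4.63 kb in the control lists (log2 ratio 0.15, two-sided exact permutation p = 1.0), and these values overlapped. Besides the start, a region between 28224 and 29758 bp past it, downstream of the annotated end (chromosome 7, 89951218 to 89952752), held a peak in all 4 lists. It was the only merged region of the 10 windows away from a start with an H3K27ac peak in all 4 lists. Overlapping peaks were merged in a chain, and the peaks of knockout replicate 1 and control replicate 2 did not overlap each other. Another in the gene body (chromosome 7, 89975833 to 89976849) was called in 1 knockout list and both control lists.

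Rbbp4 was the gene with more H3K27ac bases in both knockout lists than in both control lists (background 10.0%). It had 1.26 and 4.20 kb in the knockout lists, against 0 and 0.50 kb in the control lists (log2 ratio 2.10, two-sided exact permutation p = 0.333). Within 1 kb of its start, peaks of 629 and 1691 bp were called in the knockout lists and none in the control lists. It was thus the only PRC2 gene with H3K27ac in both knockout lists and neither control list within 1 kb of a start (background 2.87%). In the whole window this class held 0 PRC2 genes (background 2.93%), since control replicate 2 had a minimum-width peak in the gene body. The 629 bp peak, of knockout replicate 1, lay between positions -876 and -248 relative to the start, inside the span of the neighbouring Zbtb8os. The 1691 bp peak also touched that span, so neither peak can be assigned to Rbbp4 alone. In knockout replicate 2 the window held 6 H3K27ac peaks. All but the start peak had the minimum width, lay in the gene body and overlapped no peak of knockout replicate 1. Ezh1 had H3K27ac in 1 knockout list alone, a minimum-width peak that ended at position -4128 relative to the start.

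At Jarid2 the peak over the start was wider in knockout while the whole window overlapped. The window held 7.09 and 8.55 kb of H3K27ac in the knockout lists, against 7.36 and 5.16 kb in the control lists (log2 ratio 0.30, two-sided exact permutation p = 0.667). The start peak was 5228 and 7547 bp wide in the knockout lists, against 2220 and 2158 bp in the control lists. Control replicate 1 had a separate peak of 3497 bp that began 1741 bp past the first start, in the stretch that a single peak covered in knockout replicate 2. Within 1 kb of the 2 starts the values were 2.50 and 2.50 kb in knockout, which is the whole window, against 1.75 and 1.78 kb in control (log2 ratio 0.41, two-sided exact permutation p = 0.333).

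Mtf2 had the largest H3K27ac block of the group, away from its first start. The window held 13.0 and 9.52 kb in the knockout lists, against 11.0 and 13.8 kb in the control lists (log2 ratio -0.13, two-sided exact permutation p = 0.667). Peaks of 7944 and 6010 bp in the knockout lists, against 7158 and 6231 bp in the control lists, took in the second annotated start, the CG-poor one printed above. They ranked 56 of 15271 and 149 of 15058 by width in knockout, and 73 of 15541 and 109 of 13520 in control. No H3K4me3 peak lay within 1 kb of that start in any list. The first, CG-rich start had H3K27ac peaks of 1077 and 1326 bp in knockout, against 1415 and 1412 bp in control. A region upstream (chromosome 5, 108059760 to 108061721) held H3K27ac peaks of 0.50 and 1.96 kb in the control lists and none in the knockout lists. It took in most of the 905 bp H3K4me3 peak of control replicate 2.

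Aebp2 carried H3K27ac upstream of the start that had H3K4me3. It had 2.05 and 4.17 kb in the knockout lists, against 4.08 and 3.20 kb in the control lists (log2 ratio -0.20, two-sided exact permutation p = 1.0). A region between positions -2990 and -701 relative to the first start was called in all 4 lists, with peaks of 635 and 2008 bp in knockout, against 2221 and 1694 bp in control. Start 1 was inside an H3K27ac peak in the 2 knockout lists and in no control list, and start 2 was inside none in any list. Within 1 kb of their starts, Jarid2, Aebp2 and Rbbp4 had more H3K27ac bases in both knockout lists (background 7.51%). Phf19 had no H3K27ac peak in any list.

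Outside the starts, most H3K27ac was not shared between lists. Merged over the 4 lists, H3K27ac peaks at PRC2 genes made 10 regions at starts and 55 away from them. Of those at starts 8 were called in all 4 lists. Of those away from starts 48 were in 1 list, among them the scattered minimum-width peaks along the long Jarid2 gene. Low sharing was general to these lists. Over whole H3K27ac lists, 41.4% and 41.8% of peaks overlapped the other replicate in knockout, against 32.8% and 38.1% in control.

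At most PRC2 genes with H3K4me3 in a list, some of the same bases were also called for H3K27ac. The marks shared bases at 7 of the 9 and 8 of the 10 genes with H3K4me3 in the knockout lists, against 3 of 5 and 5 of 6 in the control lists. The shared bases came to 11586 and 13550 in knockout, against 2142 and 4046 in control. At Jarid2 the whole H3K4me3 peak lay inside H3K27ac in both knockout lists (100%). At Ezh2 the share of H3K4me3 bases inside H3K27ac was 84.4% and 77.5% in the knockout lists, against 100% in control replicate 2, and at Aebp2 it was 47.9% and 68.2% in knockout, against 100% and 0% in control. Marks were precipitated from separate libraries, so shared bases do not show both marks on 1 nucleosome. The labels of the H3K27ac libraries name an H3K4me3 antibody, which could not be checked and bears on any overlap of these marks. The share over all genes is not given here, and whether the PRC2 genes differ from it was not tested.

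H3K27me3, the product of PRC2, was called at 1 PRC2 gene, Phf19. It was the only gene of the group with H3K27me3 in each list, so the count was 1 in every knockout list and 1 in every control list (background of genes called in all 4 lists 8.50%). The other 9 had no H3K27me3 in any list, as had 67.4% of all genes. Over all genes the share called was 23.1% and 23.3% in knockout lists and 15.5% and 17.0% in control lists.

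Phf19 had 4.49 and 1.27 kb of called H3K27me3 in the knockout lists, against 0.50 and 1.64 kb in the control lists. Knockout replicate 1 was far above the other lists, and knockout replicate 2 lay between the control values, so the groups overlapped (log2 ratio 1.10, two-sided exact permutation p = 0.667). The bases came from 6 and 2 peaks in the knockout lists, against 1 and 2 in the control lists, each between the minimum width and 1243 bp. None of these 11 peaks overlapped a peak of the other replicate. Over whole H3K27me3 lists only 30.6% and 30.3% of peaks did so in knockout, against 23.2% and 20.1% in control. The region around the start (chromosome 2, 34912603 to 34914421) was called in knockout replicate 1 and control replicate 2, and there peaks of 635 bp in knockout and 888 bp in control took in the start itself. In knockout replicate 2 the start was instead inside the gene's only H3K4me3 peak. H3K27me3 shared no base with H3K4me3 or H3K27ac at any of the 10 genes in any list.

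**Figure D5:**
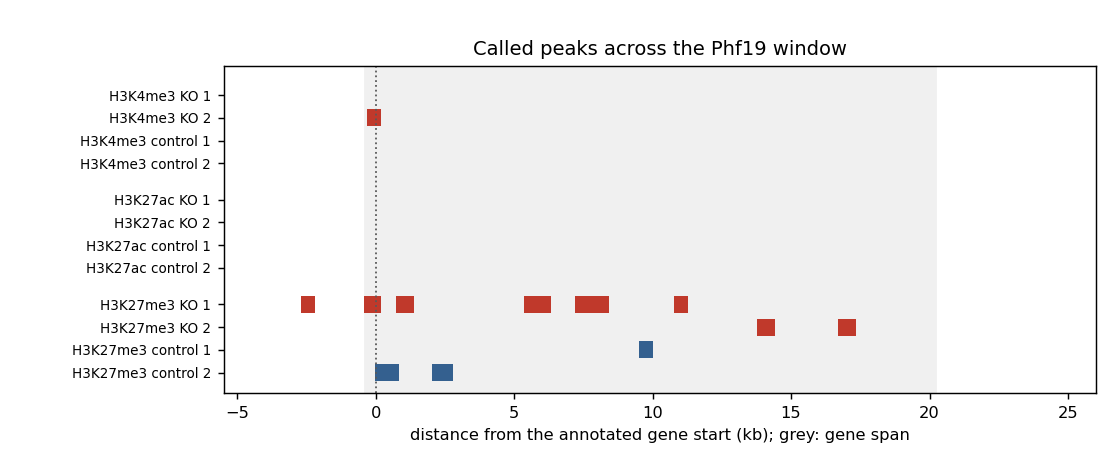
Called peaks across the Phf19 window by distance in kb from its start, 1 line per list and mark, knockout above control, with the gene span in grey. The H3K27me3 peaks, 6 and 2 in knockout and 1 and 2 in control, do not overlap between replicates of a condition, and H3K27ac has none.

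Each gene's pattern was set beside that of every other protein-coding gene by the mean absolute difference of log2(called bases + 500) over the 12 lists, for the 8 PRC2 genes called in at least 6 lists. Closest to Jarid2 were Nanog (0.0877), Gsk3b (0.142) and Pcbp1 (0.163). Suz12 was closest to Zfp280b (0.0848), Rad21 (0.0898) and Oxsr1 (0.0964), Ezh2 to Ssrp1 (0.114), Ahsa1 (0.118) and Cdv3 (0.122), and Eed to Setd5 (0.139), Mtf1 (0.166) and Helz (0.175). Rbbp7 was closest to Cdk19 (0.127), Cox5a and Nucks1, Aebp2 to Anapc10 (0.119), Actn1 and Ndufa7, Mtf2 to Gpr107 (0.183) and Brd1, and Rbbp4 to C1qbp (0.193), Smad1 and Ppp1r35. These values describe likeness of called lengths over 12 lists and carry no test.

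Other genes linked to PRC2 were mostly called for H3K4me3 in knockout and had no H3K27me3 in both lists of a condition. Of 11, which include PRC2 accessory proteins, the H3K27 demethylases Kdm6a and Kdm6b and the Asxl proteins of the Polycomb deubiquitinase, 9 had H3K4me3 in both knockout lists and 4 (Lcor, Kdm6a, Asxl1 and Asxl3) in both control lists, with the same background of 30.4% and 4.82% of all genes. Kdm6b was the single one with H3K4me3 in both knockout lists and neither control list (background 15.4%). H3K27ac was called in all 4 lists at 5 (Lcor, Kdm6a, Kdm6b and Asxl1 among them; background 17.1%). H3K27me3 was called in both knockout lists at 0 of the 11 (background 17.0%), and in both control lists at 0 (background 10.3%). It was called in no list at 9 of them (background 67.4%), and Kdm6b and Asxl3 had it in at least 1 list.

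Genes of PRC1, the complex that ubiquitinates histone H2A and binds H3K27me3 through its Cbx subunits, were called for H3K27me3 more often by count. Of 19, H3K27me3 was called in both knockout lists at 9 and in both control lists at 5 (Bmi1, Cbx2 and Cbx8 among them), against 1 and 1 of the 10 PRC2 genes, with a background of 17.0% and 10.3% of all genes. H3K4me3 was called at 14 of the 19 in both knockout lists (background 30.4%) and at 1, Pcgf2, in both control lists (background 4.82%). In both knockout lists and neither control list it was called at 9 of the 19 (Bmi1, Pcgf6 and Cbx2 among them), against 1 of the 10 PRC2 genes (background 15.4%). Among all genes with H3K4me3 in both knockout lists, 50.7% were called in neither control list. The difference between these lists of genes was not tested.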

How the data were processed

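The ChIP-seq peak lists, 2 from Mettl14 knockout and 2 from Mettl14 control cells for each of 3 marks, were grouped by their titles. The 4 input libraries, and the Mettl3 knockout that the series names, were not analysed here. The build was mm10 and the tools were HOMER, SAMtools, Bowtie2 2.4.1, Trimmomatic 0.38 and CASAVA, per the submitters' processing notes. How peaks were called, and how inputs and spike-in chromatin were used, is not given in the sources used here. The antibody field of the H3K27ac libraries names an H3K4me3 antibody, per the labels. Marks were taken from titles, and which antibody was used could not be checked. The deposited lists are BED tables, 1 per library, whose score column is the constant 1 for every peak and was not used; other deposited columns used are peak start and end. No peak is narrower than 0.50 kb.

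Gene spans, annotated starts and promoters came from RefSeq tables of GRCm38.p6. A gene was called in a list if a peak overlapped its span or the 5 kb on either side by at least 1 bp. No exon or UTR annotation was used. Summed bases and gene counts were compared by a two-sided exact permutation test over 6 assignments, with no adjustment since no p can pass 0.05 here; ratios per gene used 500 added bases. The named genes were all 10 members, up to 4 per class of each list in list order and the 3 nearest genes per member; the results of some of these genes are not reported here. The members and lists were chosen with earlier results of these data known. The alternatives were the gene span alone, flanks of 1 kb and 10 kb, an overlap of 250 bp, the wider 50% of each list, lists of equal length, peaks of the minimum width left out, each list left out and a replicate block; a window of 1 kb around annotated starts was added after seeing the data. No 2 lists were identical. The counting was tested on simulated data, where 100 of 100 planted genes per mark and direction were recovered among 21887. Planted peaks lay wholly inside empty windows that touched no other gene's window. Peaks cut at a window end or shared by neighbouring genes were thus not covered by that test. Computations used Python 3.11.15, pandas 2.3.3, numpy 2.4.6 and matplotlib 3.10.9.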

Additional observations from a re-analysis of the deposited data

How the results depend on the processing

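Depth, peak height and the caller's settings are unknown, so called or not called is the limit of these lists, and no result could pass 0.05. Of 260 log2 ratios recomputed for single genes and marks (20 values under 13 settings), 23 turned sign. The replicate block leaves every ratio as reported, so its 20 ratios could not turn. The overlap of 250 bp also left every ratio as reported. Among the 9 values whose groups did not overlap, 0 turned. For those 9, leaving out 1 list or blocking by replicate number could not turn a sign, so that count was partly fixed in advance. Ezh1 H3K4me3, which is among the 9, fell to 0.00 at equal list length and with the wider 50% of each list. The 7 values that turned were Mtf2 for H3K4me3 and 6 genes for H3K27ac. For Mtf2 H3K4me3 the range with a list left out was -0.17 (without control replicate 1) to 0.85. For H3K27ac these ranges were -0.48 to 0.16 at Ezh2, -0.40 to 0.55 at Eed, -0.29 to 0.26 at Suz12, -0.70 to 0.17 at Aebp2, -0.36 to 0.07 at Mtf2 and -0.55 to 0.29 at Rbbp7. H3K27ac signs also turned in other settings. Ezh2 gave 0.09 at equal list length, with the wider 50% of each list and without peaks of the minimum width, and 0.06 within 1 kb of starts. Eed gave -0.07 at equal length and -0.10 with the wider 50%. Suz12 gave 0.26 for the gene span alone and 0.11 with 1 kb flanks. Aebp2 gave 0.07 for the span alone, 0.06 with 1 kb flanks, 0.10 with the wider 50% and without minimum-width peaks, and 0.88 within 1 kb of starts, where Rbbp7 gave 0.24. The count of PRC2 genes with H3K4me3 in both knockout lists and neither control list, 1 as reported, was 0 with lists of equal length, 2 with the wider 50% of each list, 4 without peaks of the minimum width, 2 within 1 kb of annotated starts, and 1 to 4 with a list left out. The same count for H3K27ac, 0 as reported, was 1 with 10 kb flanks, with the wider 50% of each list, without peaks of the minimum width and within 1 kb of starts, and 0 to 1 with a list left out. The cause was not tested. With a list left out, the log2 ratio of summed bases was 1.57 to 2.21 for H3K4me3, -0.02 to 0.19 for H3K27ac, where the sign turned without knockout replicate 2, and 0.24 to 2.52 for H3K27me3. The difference in genes called was 3.5 to 4.5 for H3K4me3, 0.5 to 1.5 for H3K27ac and 0 to 0 for H3K27me3. For H3K27me3 this difference was 0.50 with 10 kb flanks, with the wider 50% of each list and without peaks of the minimum width. The Phf19 H3K27me3 log2 ratio also depended on the window. It was 1.16 with 10 kb flanks (two-sided exact permutation p = 0.333) and 0.01 within 1 kb of starts.

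With the replicate number as a block, the exact permutation test by sign flips cannot go below p = 0.5. The exact permutation test then gave p = 0.5 for the H3K4me3 difference of 4 genes and log2 ratio of 1.85. It gave an exact p = 1.0 for the H3K27ac values (1 gene and 0.09) and the H3K27me3 values (0 genes and 1.42). Called lengths of same-numbered lists did not deviate together (correlations 0.00 for H3K4me3, 0.04 for H3K27ac and 0.06 for H3K27me3). These covered the 594, 1182 and 324 genes called in all 4 lists within 1 kb of annotated starts. Such values cannot tell whether same-numbered lists shared a culture or a preparation.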
